A study of Danio rerio with 5 samples.

Results

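DNA methylation of whole zebrafish embryos was compared between its 2 measured end points, 48 hours post fertilisation (48 hpf) and dome stage, a late blastula stage. All peaks of these MethylCap-seq libraries on chromosomes 1 to 25 were taken, 192673 at 48 hpf and 220564 at dome, or 413237 of the 781848 peaks in the 5 lists of the series. MethylCap-seq captures DNA fragments that carry methylated CpG and sequences them. Both libraries came from whole embryos of mixed AB and Tubingen strain background, captured with a Diagenode kit. The labels name no treatment and no mutation, and no source used here gives the number of embryos per library. Peak lists hold no expression values, so the stages could not be checked against marker genes. The remaining lists describe DNA methylation at 24 hpf and the histone mark H3K27me3 at 48 hpf and dome.

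In vertebrates, Dnmt1 copies CpG methylation to the new DNA strand, Dnmt3 enzymes add it at further sites, and Tet enzymes oxidise it as a first step of its removal. In zebrafish the maternal genome takes on a sperm-like methylation pattern before dome stage, so a largely methylated genome is already in place in the blastula. Later, while organs form, some regulatory elements are known to lose methylation with the help of Tet enzymes. A peak in these lists marks a place where many captured fragments pile up. It depends on how many methylated CpGs lie close together as well as on the share of cells that carry the methylation.

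Each stage had 1 library, so no difference below has a replicate spread and no test between stages was made. Intervals in parentheses are Wilson 95% intervals, which cover counting error only and treat peaks as independent. The fold of a peak is the peak caller's enrichment at the summit over a local background, as the authors deposited it. A peak is called strong here when its fold lies in the upper 10% of its own list. The threshold fell at a fold of 6.2288 at 48 hpf, where the next peak outside had 6.2279, and at 5.9607 at dome, where the next had 5.9584. Ties at the threshold were all kept, 23 peaks at 48 hpf and 2799 at dome, which gave 19283 strong peaks at 48 hpf (10.01% of the list) and 22425 at dome (10.17%). A strong peak with no peak of the other end point overlapping it by at least 1 bp is called gained if it belongs to 48 hpf and lost if it belongs to dome. These words describe calls in 2 lists, not measured changes of methylation.

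The deposited values also allowed the number of fragments at each summit to be worked out. MACS2 is known to form the fold as the fragments at the summit plus 1, divided by the local background plus 1, and the p-value from a Poisson distribution with that background. Solved together, these formulas returned a whole number of fragments for every peak, with a largest error in −log10 p of 0.000156 at 48 hpf and 0.000217 at dome. The neighbouring whole numbers missed by a median of 0.267 at 48 hpf and 0.279 at dome. The lowest local background, taken as the genome background, was 1.65 fragments at 48 hpf and 2.52 at dome, a ratio of 0.654. On it lay 36.6% of the 48 hpf peaks and 33.7% of the dome peaks. There, 1 more fragment at the summit added 0.377 to the fold at 48 hpf and 0.284 at dome. The median summit held 13 fragments at 48 hpf and 18 at dome. The strong peaks held at least 16 fragments at 48 hpf and at least 20 at dome, so the 48 hpf values rest on fewer fragments and are the coarser ones.

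Most methylated sites of the embryo at 48 hpf were already called in the blastula, and the blastula held more calls of its own. Of the 48 hpf peaks, 55287 (28.7%) had no dome peak, and of the dome peaks, 87540 (39.7%) had no 48 hpf peak. By bases, 47.9 Mb lay in peaks of both stages, 24.1 Mb in 48 hpf peaks alone and 49.5 Mb in dome peaks alone. Peaks mostly matched singly. In 118450 of 141267 overlapping pairs (83.8%) each peak met only the other. A 48 hpf peak spanned 2 or more dome peaks in 3817 cases, and a dome peak spanned 2 or more 48 hpf peaks in 7887 cases. Dome peaks were the wider ones, with a median of 309 bp at 48 hpf against 370 bp at dome. The narrowest peak was 211 bp at 48 hpf and 244 bp at dome, and the part of this difference between the lists in the unequal shares was not tested.

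Strong sites were called at both end points far more often than the lists as a whole. Of the strong 48 hpf peaks, 968 of 19283 were gained (5.02%, 4.72 to 5.34%), against 28.7% of all 48 hpf peaks without a dome peak. Of the strong dome peaks, 3073 of 22425 were lost (13.7%, 13.3 to 14.2%), against 39.7% of all dome peaks without a 48 hpf peak. Lost calls thus outnumbered gained ones among the strong peaks, as peaks called at dome alone outnumbered those called at 48 hpf alone. A strong partner is a special case of a partner, so its share cannot exceed that of any partner. Of the strong 48 hpf peaks, 8454 (43.8%, 43.1 to 44.5%) had a strong dome partner, against 10.6% of all 48 hpf peaks, and 9861 (51.1%) had a weaker one. Of the strong dome peaks, 8334 (37.2%, 36.5 to 37.8%) had a strong 48 hpf partner, against 8.34% of all dome peaks, and 11018 (49.1%) had a weaker one. The partner lay in the lower 50% of its list for 1696 strong 48 hpf peaks (8.80%) and for 2909 strong dome peaks (13.0%).

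**Figure D1:**
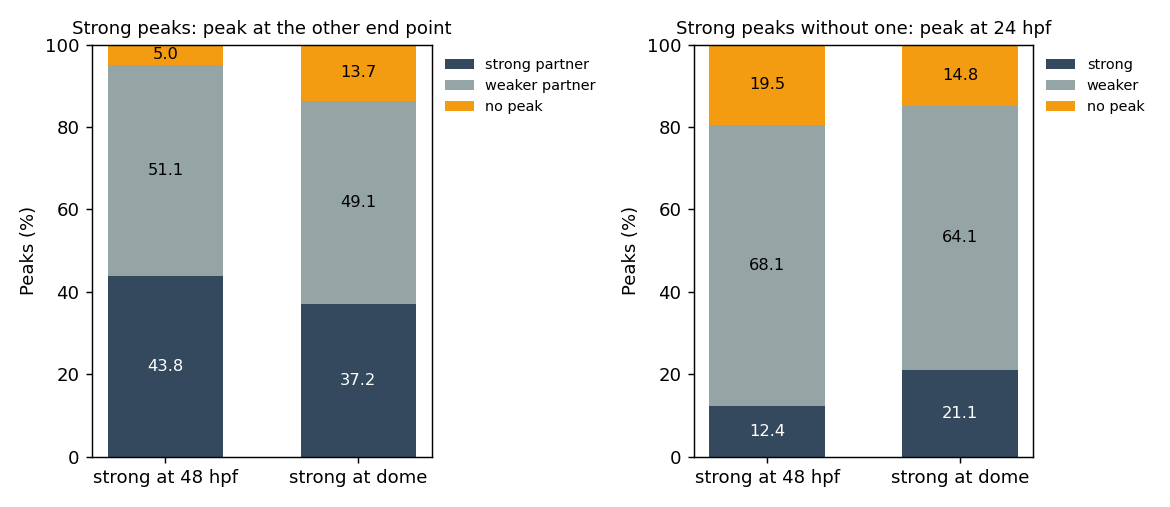
Left, share (%) of strong peaks (upper 10% of own list by fold) whose partner at the other end point was strong, weaker or missing, for 19283 peaks strong at 48 hpf and 22425 strong at dome. Right, what the 24 hpf list held at the 968 strong 48 hpf peaks without a dome peak and at the 3073 strong dome peaks without a 48 hpf peak. The part without a partner is 5.0% at 48 hpf and 13.7% at dome, and most of those peaks had a weaker peak at 24 hpf. A 24 hpf peak of any strength overlapped 80.5% of those 48 hpf peaks, against 82.1% of all 48 hpf peaks. At dome it overlapped 85.2% of those peaks, against 82.4% of all dome peaks. A strong 24 hpf peak overlapped 12.4% of those 48 hpf peaks, against 13.4% of all 48 hpf peaks. At dome a strong one overlapped 21.1% of those peaks, against 12.7% of all dome peaks.

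The libraries differed in genome background, so the summits were also scaled to the background of the other library. With each dome summit and its local background multiplied by the background ratio of 0.654, the 3073 lost peaks had from 13.1 fragments upward, with a median of 14.4. Their −log10 p would then be at least 8.23, while the lowest −log10 p called at 48 hpf was 2.49. The 968 gained peaks, multiplied by 1.53 to the dome background, reached a −log10 p of at least 15.8, against a lowest called value of 2.72 at dome. Nearly all peaks pass such a scaling, with 192673 of 192673 at 48 hpf and 218656 of 220564 at dome (99.1%), and gained and lost peaks were chosen for a high fold, so the pass does not set them apart. The part of depth, of the minimum length of a peak and of capture in the unequal shares was not tested. The shares themselves moved with the measure of strength and with the part of the lists used. With strength taken as fragments at the summit over the genome background, 17.3% (16.8 to 17.8%) of strong 48 hpf peaks were gained and 21.1% (20.6 to 21.6%) of strong dome peaks were lost, a setting added after the data were seen. In the 50% of each list with the higher −log10 q, 10.5% of strong 48 hpf peaks were gained and 23.7% of strong dome peaks were lost, and with the upper 20% by fold as strong 8.82% were gained and 17.9% were lost. With peaks within 1 kb counted as shared, 18.1% of all 48 hpf peaks and 27.2% of all dome peaks had no counterpart. The dome share exceeded the 48 hpf share under each of these settings.

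The share of calls without a counterpart was lowest in the strongest decile at both stages. In the lowest decile by fold, 40.7% (40.0 to 41.4%) of 48 hpf peaks and 52.4% (51.8 to 53.1%) of dome peaks had none. From decile 3 to decile 5 the 48 hpf share went up, with 34.2% and 38.0%, and the dome share went down, with 50.2% and 45.9%. In decile 8 the shares were 18.4% at 48 hpf and 33.7% at dome. By −log10 q they ran down to 3.58% at 48 hpf and 9.15% at dome in the highest decile. The order of the stages was the same in every decile by either measure. Within the strong peaks the shares were lower in the higher tiers, except between the last 2 tiers at 48 hpf. Between the upper 10% and the upper 5%, 6.93% of 48 hpf peaks were gained and 18.3% of dome peaks were lost. Between the upper 5% and the upper 1% the shares were 3.62% at 48 hpf and 9.86% at dome, and between the upper 1% and the upper 0.1% they were 1.03% at 48 hpf and 4.31% at dome. In the upper 0.1%, 2 of 192 peaks were gained (1.04%, 0.286 to 3.72%) and 1 of 225 was lost (0.444%, 0.0785 to 2.47%), and the partner was strong for 163 of these 48 hpf peaks (84.9%) and for 187 of these dome peaks (83.1%). The strongest sites of either list were thus nearly all called at both end points, and mostly as strong ones.

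**Figure D2:**
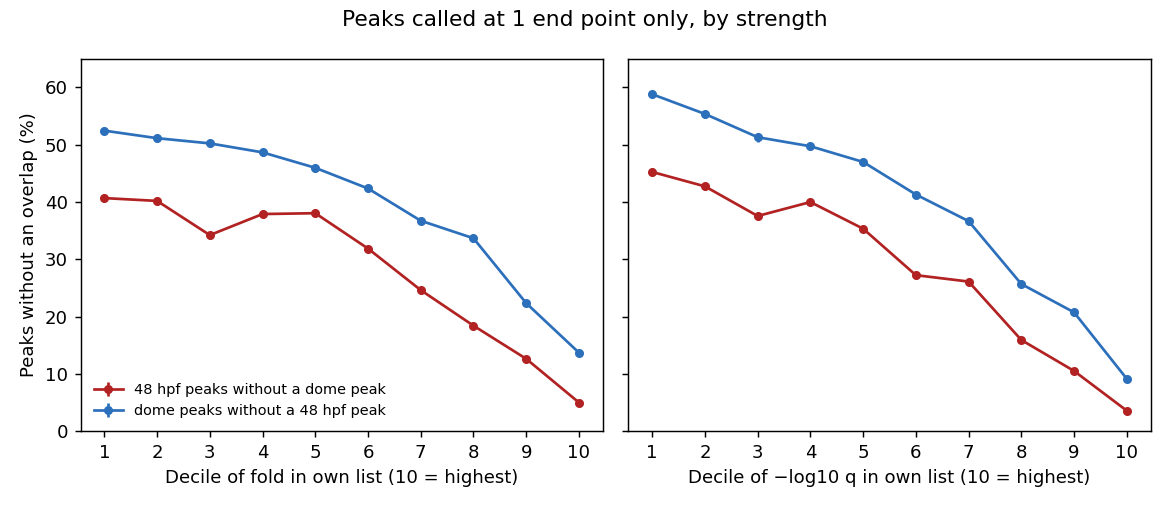
Share (%) of peaks with no overlapping peak at the other end point, by decile of fold (left) and of −log10 q (right) within each list, with Wilson 95% intervals that are mostly smaller than the points. The 48 hpf line lies below the dome line in every decile, and both lines end at their lowest value in decile 10 (5.01% at 48 hpf and 13.7% at dome by fold).

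Width moved with these calls as well. Gained peaks had a median width of 348 bp, against 511 bp for all strong 48 hpf peaks, and lost peaks 404 bp, against 538 bp for all strong dome peaks. Among strong peaks of at least 437 bp at 48 hpf, 205 of 12321 (1.66%, 1.45 to 1.91%) were gained, and among those of 240 to 309 bp 259 of 1312 (19.7%, 17.7 to 22.0%). Among strong peaks of at least 519 bp at dome, 575 of 11839 (4.86%, 4.48 to 5.26%) were lost, and among those of 288 to 369 bp 940 of 2617 (35.9%, 34.1 to 37.8%). Peaks in general, strong or not, differed by width in the same direction. At 48 hpf, 6.67% of all peaks of at least 437 bp and 37.04% of those of 240 to 309 bp had no dome peak. At dome, 13.36% of all peaks of at least 519 bp and 50.02% of those of 288 to 369 bp had no 48 hpf peak. A narrow peak has less length in which an overlap can occur, and the part of width in the shares was not tested. Gained and lost peaks also lay more often on the genome background. The local background was at the genome level in 65.1% of gained peaks, against 37.7% of all strong 48 hpf peaks, and in 73.8% of lost peaks, against 50.8% of all strong dome peaks.

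The 7 strongest gained peaks, by fold or −log10 q, were 384 to 644 bp wide and held 25 to 38 fragments at the summit. At chr20:33703888-33704271 (coordinates on danRer7, counted from 1) the 48 hpf list had a fold of 11.7 with 30 fragments at the summit. The nearest dome peak lay 10731 bp away. This site stood at percentile 99.97 of fold at 48 hpf and already at percentile 99.3 at 24 hpf. At chr7:17563431-17563914 the 48 hpf fold was 11.4 with 30 fragments, and the nearest dome peak lay 3997 bp away. Its 24 hpf peak was less prominent, at percentile 85.3. At chr1:42527721-42528286 the 48 hpf fold was 10.1, again with 30 fragments, and the 24 hpf peak was at percentile 39.9. So of the 3 highest, only the first was strong at 24 hpf. A site at chr15:12668037-12668449 (48 hpf fold 9.81, 25 fragments) was the most isolated of those named. Its nearest dome peak lay 22488 bp away, its 24 hpf peak was at percentile 99.99, and it overlapped H3K27me3 peaks of 48 hpf and dome. The gained peak of equal fold at chr4:4092212-4092600 lay in the 100 kb window with most gained peaks. The highest fragment count among the named gained peaks was 38, at chr15:46330161-46330612, with a fold of 8.24 over a local background of 3.73 fragments. The last of them, chr2:58298759-58299402, had 35 fragments and a fold of 8.60. All 7 had a 24 hpf peak, as did 80.5% of all gained peaks and 82.1% of all 48 hpf peaks.

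Ranked by fold, the 5 strongest lost peaks held 32 to 43 fragments at the dome summit. Scaled to the 48 hpf background, these counts correspond to 20.9 to 28.1 fragments. The 5 gained peaks of highest fold held 25 to 30 fragments at 48 hpf. At chr4:36576465-36577118 the dome fold was 10.1 with 43 fragments at the summit, and neither 24 hpf nor 48 hpf had an overlapping peak. The nearest 48 hpf peak, at percentile 83.8, lay 536 bp away. At chr12:2995955-2996613 the dome fold was 9.90 with 35 fragments. Here the 24 hpf list had a peak at percentile 98.5, and a 48 hpf peak at percentile 97.0 lay 576 bp away. These first sites thus had a 48 hpf call within 1 kb, which was strong only at the chromosome 12 site. At chr22:14352927-14353350 the dome fold was 9.76 with 39 fragments, with the nearest 48 hpf peak at 5363 bp and a 24 hpf peak at percentile 97.0. At chr19:12607687-12608121 the dome fold was 9.65 with 33 fragments, over an H3K27me3 peak of dome. At chr5:41254190-41254632 it was 9.37 with 32 fragments, and the nearest 48 hpf peak lay 13611 bp away. These last 3 sites lay at least 4875 bp from any 48 hpf call, and each had a peak at 24 hpf.

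Ranked by −log10 q, the lost peaks were of another kind, with far more fragments over a raised local background. The highest was chr23:22487753-22488309, with 122 fragments at the dome summit over a local background of 12.8 fragments. The nearest 48 hpf peak lay only 34 bp from its edge, with 16 fragments at its summit. The neighbour at chr23:22473050-22473436 had 124 fragments over 15.8. At chr13:48684651-48685037 there were 106 fragments over 12.7. No peak of 24 hpf or 48 hpf overlapped these 3 sites, and the nearest 48 hpf peaks to the second and the third lay 2811 and 2010 bp away. At the dome-to-48 hpf background ratio, these summits would hold 79.8, 81.1 and 69.3 fragments at 48 hpf. At chr11:21544910-21545347 there were 89 fragments over a background of 10.6, and at chr3:44058538-44059081 there were 88 over 11.7. Both had weak 24 hpf peaks, at percentiles 16.0 and 4.42, and 48 hpf peaks 469 and 988 bp away. Such settings were rare among strong peaks in general, since the fold is taken over the local background. A local background above 2 times the genome background was found in 7 of 968 gained peaks (0.723%) and 13 of 3073 lost peaks (0.423%), against 18.6% of all 48 hpf peaks and 17.6% of all dome peaks. Among strong peaks with a strong partner the shares were 3.03% at 48 hpf and 2.78% at dome, and with a weaker partner 4.04% at 48 hpf and 1.93% at dome.

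The surroundings of the chromosome 23 and chromosome 13 sites were chosen for a closer description after their values were seen. These sites are lost peaks picked for a high −log10 q, so higher summits and a raised local background at dome there follow in part from that choice. Within 20 kb of the first chromosome 23 summit, the dome list held 10 peaks with 14 to 124 fragments and a median local background of 5.56 times the genome background. The 24 hpf list held 18 peaks there with 12 to 37 fragments at a median of 3.07 times. The 48 hpf list held 5 peaks with 16 to 26 fragments at a median of 4.35 times. The median background was thus raised at all 3 stages. The highest summit stood at 49.1 times the genome background at dome, 13.9 times at 24 hpf and 15.8 times at 48 hpf. Within 20 kb of the chromosome 13 summit, dome had 18 peaks with 35 to 106 fragments, 24 hpf had 18 with 19 to 57, and 48 hpf had 10 with 16 to 36. The median local background there was 5.40, 3.29 and 4.88 times the genome background at dome, 24 hpf and 48 hpf.

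**Figure D3:**
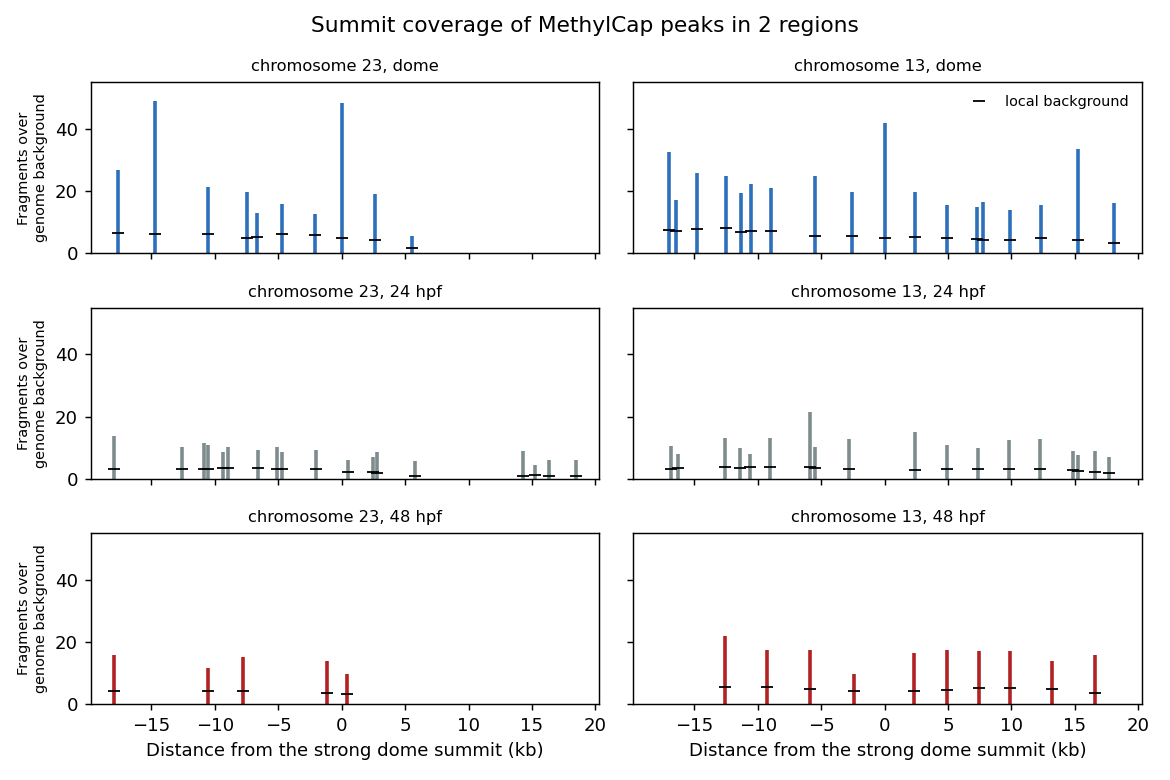
Fragments at the summit of each MethylCap peak (vertical lines) and its local background (black ticks), both as multiples of the genome background of the library, against distance in kb from a strong dome summit without a 48 hpf peak, on chromosome 23 (left) and chromosome 13 (right). At dome a few summits reach 42.0 to 49.1 times the genome background, and the highest summits of 24 hpf and 48 hpf stay at 13.9 to 21.8. Both regions are centred on dome summits picked for a high −log10 q, so the higher dome values follow in part from that choice.

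The 24 hpf list, which was not used to choose gained or lost peaks, held a peak at most of them. It also held one at most peaks of either whole list. Of the gained peaks, 120 (12.4%) were strong at 24 hpf, 659 (68.1%, 65.1 to 70.9%) had a weaker 24 hpf peak and 189 (19.5%, 17.2 to 22.1%) had none. Of the lost peaks, 647 (21.1%) were strong at 24 hpf, 1970 (64.1%, 62.4 to 65.8%) had a weaker 24 hpf peak and 456 (14.8%, 13.6 to 16.1%) had none. A strong 24 hpf peak overlapped 13.4% of all 48 hpf peaks and 12.7% of all dome peaks. The gained share was thus near that of its list, and the lost share was above it. Among strong peaks with a weaker partner the share was 30.1% at 48 hpf and 36.5% at dome. With a strong partner it was 55.4% at either stage. The gained and lost shares lay below those of these other strong peaks. A 24 hpf peak of any strength overlapped 80.5% of the gained and 85.2% of the lost peaks, against 82.1% of all 48 hpf peaks and 82.4% of all dome peaks. Among strong peaks with a strong partner the shares were 99.0% for 48 hpf and 99.1% for dome peaks. Where present, the 24 hpf peak had a median percentile of 68.2 at gained and 75.1 at lost peaks, against 91.9 at sites strong at both end points. Gained and lost sites thus ranked lower at 24 hpf than sites strong at both end points, and higher than all unmatched peaks, which had median percentiles of 45.8 for 48 hpf and 50.4 for dome peaks. The 24 hpf list is longer, with 330176 peaks and a genome background of 2.67 fragments.

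A smaller number of gained and lost calls were near misses. The nearest dome peak lay within 1 kb of 212 of the 968 gained peaks (21.9%), and the nearest 48 hpf peak lay within 1 kb of 570 of the 3073 lost peaks (18.5%). For all peaks without a counterpart these shares were 37.0% at 48 hpf and 31.5% at dome. The median gap was 3028 bp for gained and 4006 bp for lost peaks, against 1621 bp and 1968 bp for all unmatched peaks of 48 hpf and of dome. More than 10 kb separated 81 gained peaks (8.37%) and 358 lost peaks (11.6%) from the other list. Gained and lost calls therefore lay further from the other list than unmatched calls in general. Strong peaks of every class also had fewer neighbours in their own list. Within 10 kb, the mean number of other peaks of the same list was 2.25 at gained peaks. It was 2.44 and 2.26 at strong 48 hpf peaks with a weaker and a strong partner, and 2.92 at all 48 hpf peaks. For dome it was 2.56 at lost peaks, 2.64 and 2.52 at the other strong peaks, and 3.37 at all peaks. The part of this sparser setting in the gaps was not tested.

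Most of the 100 kb windows that held a gained or a lost peak held only 1. No such counts were made over all strong peaks, so clustering could not be judged. Among windows of 100 kb, 881 held 1 gained peak, 42 held 2 and 1 held 3. That last window, on chromosome 4 from 4000001 to 4100000, had 17 peaks at 48 hpf, 10 of them strong, and 15 at dome. For lost peaks, 2333 windows held 1, 323 held 2, 23 held 3, 5 held 4 and 1 held 5. The window with 5 lay on chromosome 8 from 9900001 to 10000000 and had 12 peaks at 48 hpf and 23 at dome, of which 7 were strong. Windows with 4 lost peaks included chromosome 3 from 26400001 to 26500000 and chromosome 8 from 31900001 to 32000000. They had 12 and 10 peaks at 48 hpf and 20 and 17 at dome.

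Where peaks did pair, their summits lay close together. For each 48 hpf peak the dome partner was the overlapping peak with the nearest summit. Over 137386 pairs the median distance between summits was 82 bp, with an interquartile range of 33 to 170 bp. Summits lay within 50 bp in 35.4% of pairs and within 100 bp in 56.9%, and 3.42% were over 500 bp apart. The median signed distance along the chromosome coordinates (48 hpf minus dome) was −1 bp. Peaks were not oriented by strand or gene, so this value cannot show whether summits shifted relative to genes. Strong sites kept their position more closely. The median was 66 bp in the 8454 pairs strong at both stages, 72 bp in the 9861 pairs strong at 48 hpf alone, 77 bp in the 12054 pairs strong at dome alone and 85 bp in the 107017 pairs weaker at both.

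Width had to be taken into account here, because strong peaks are wider and a wide peak leaves room for distant summits. Among pairs whose wider peak measured over 300 and up to 400 bp, the median distance was 31 bp for 606 pairs strong at both stages and 57 bp for 27268 pairs weaker at both. At over 400 and up to 500 bp it was 36 bp and 79 bp. At over 500 and up to 700 bp it was 64 bp and 118 bp, and over 700 bp it was 110 bp and 188 bp. In every width class compared, strong pairs thus had the smaller distance, by a wider margin than without regard to width. Pairs in which a peak met 2 or more peaks of the other stage had a median of 196 bp, and pairs that met only each other 74 bp. A summit of few fragments is placed less exactly, and the part of fragment number in these distances was not tested. The typical displacement was below the narrowest peak width of either list. Pairing asked for an overlap and took the nearest summit, which by itself keeps distances short. The part of this rule in the distances was not tested.

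**Figure D4:**
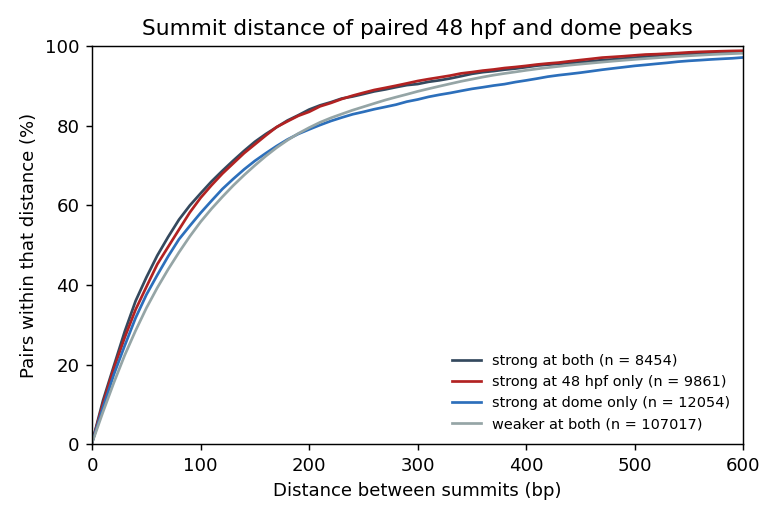
Cumulative share (%) of pairs of overlapping 48 hpf and dome peaks against the distance between their summits in bp, for pairs strong at both stages, at 48 hpf alone, at dome alone and at neither. Pairs strong at both rise first (63.0% within 100 bp) and pairs weaker at both last (55.9%). At long distances the line of pairs strong at dome alone is the lowest.

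The rank of a site by fold was only partly kept. Across the 137386 pairs, the percentiles of fold in the 48 hpf list and the dome list had a Pearson r of 0.521 and a Spearman rho of 0.520, as a description over sites that share libraries and neighbours. The difference in percentile (48 hpf minus dome) had a median of −0.861 and an interquartile range of −18.7 to 14.7. It lay within 10 points in 34.6% of pairs. The percentile was more than 50 points higher at 48 hpf in 5402 pairs (3.93%) and more than 50 points lower in 7905 pairs (5.75%). Partners of the highest dome decile had a median 48 hpf percentile of 85.8, and 41.2% of them were strong at 48 hpf. Partners of decile 9 had a median of 73.1 with 21.1% strong, and partners of the lowest decile had 8.76 with 0.319%. The interquartile range of the 48 hpf percentile was 13.4 to 54.0 for partners of dome decile 2, 30.7 to 72.3 for decile 5 and 45.8 to 88.2 for decile 9. Because the percentiles come from lists of different length and genome background, a shift of rank is not a measured change.

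**Figure D5:**
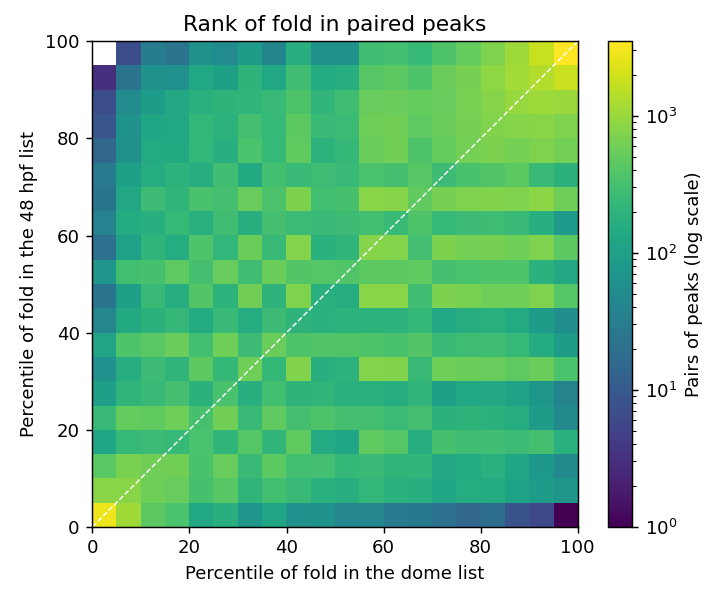
Number of pairs (colour, log scale) by percentile of fold in the 48 hpf list (vertical) and the dome list (horizontal), in bins of 5 points; the dashed line marks equal rank. Pairs gather along the line at both ends (median 48 hpf percentile 8.76 for the lowest and 85.8 for the highest dome decile) and spread widely between them. The stripes are tied folds.

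The 5 pairs with the highest summed percentile had summits 1 to 30 bp apart. Their local background was 1.65 to 5.59 fragments at 48 hpf and 3.29 to 7.64 at dome. The genome background was 1.65 at 48 hpf and 2.52 at dome. At chr24:27707-28102 the 48 hpf fold was 18.5 with 82 fragments, the highest fold of that list, and the overlapping dome peak at chr24:27672-28516 had a fold of 13.9 with 95 fragments. Their summits lay 1 bp apart. At chr22:30787151-30787877 the fold was 13.9 at 48 hpf and 13.3 at dome, with 65 and 114 fragments and summits 16 bp apart. The same chromosome carried a second such site at chr22:30979425-30980467, with 92 fragments at 48 hpf and 101 at dome. At chr23:45851098-45851607 the fold was 17.6 at 48 hpf with 97 fragments, and 12.4 at dome with 98 fragments. At chr4:52365568-52365985 the folds were 13.6 at 48 hpf and 13.3 at dome, with 35 and 56 fragments. All 5 sites had a 24 hpf peak at percentile 99.89 or above and overlapped an H3K27me3 peak of dome, and 4 of them overlapped one of 48 hpf. Among all 48 hpf MethylCap peaks, H3K27me3 peaks of 48 hpf overlapped 0.462% and those of dome 4.96%. Among the 8454 strong 48 hpf peaks with a strong partner these shares were 1.61% and 10.6%, and 99.0% had a 24 hpf peak.

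The largest differences in rank arose between strong peaks and calls of low fold. The largest upward difference was at chr19:12722673-12723073, with a 48 hpf fold of 9.17 (25 fragments, percentile 99.5) and a dome fold of 2.84 (9 fragments, percentile 8.18). Scaled to the 48 hpf background, the 9 dome fragments correspond to 5.88. At chr25:35833204-35834168 the 48 hpf fold was 7.30 with 26 fragments and the dome fold 2.64 with 15. At chr5:55785539-55785949 it was 8.12 with 34 fragments at 48 hpf and 2.79 with 15 at dome. The largest downward difference was at chr5:65403390-65403600, with a 48 hpf fold of 2.84 (7 fragments, percentile 5.20) beside a dome fold of 8.52 (29 fragments, percentile 99.5). Its summits lay 678 bp apart inside a 1302 bp dome peak, so the overlap joined different parts of that peak. At chr19:24167024-24167234 the 48 hpf fold was 2.83 with 10 fragments and the dome fold 7.41 with 29, with summits 88 bp apart. At chr4:11650081-11650486 the 48 hpf fold was 2.84 with 7 fragments and the dome fold 7.48 with 28, with summits 392 bp apart.

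Fragments set against the genome background gave a second reading of the pairs. The median summit of a pair held 14 fragments at 48 hpf and 19 at dome, or 8.49 and 7.53 times the genome background. The median log2 ratio of these multiples (48 hpf over dome) was 0.20, with an interquartile range of −0.10 to 0.48. In pairs strong at both stages the multiples were 12.7 at 48 hpf and 10.3 at dome. In pairs strong at 48 hpf alone they were 12.1 at 48 hpf and 7.53 at dome, and in pairs strong at dome alone 7.88 at 48 hpf and 9.51 at dome. Thus a paired summit stood somewhat higher above the background of its library at 48 hpf. The 48 hpf peak was mostly the narrower one, as the dome peak was wider in 71.0% of pairs. A pair needs a call in both lists. The lowest call on the genome background held 6 fragments over 1.65 at 48 hpf and 8 over 2.52 at dome. The classes of strong pairs were chosen by fold, so their multiples follow in part from that choice. The part of this selection in the ratios was not tested.

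The shares varied less between chromosomes than between deciles of strength. By chromosome, from 3.21% (chromosome 15) to 6.46% (chromosome 24) of strong 48 hpf peaks were gained, and from 11.0% (chromosome 12) to 16.3% (chromosome 6) of strong dome peaks were lost. Chromosome 4, with its repeat-rich long arm, differed along its length. From 30 Mb onward, 14 of 523 strong 48 hpf peaks were gained (2.68%, 1.60 to 4.44%) and 43 of 627 strong dome peaks were lost (6.86%, 5.13 to 9.11%). Below 30 Mb, 17 of 295 were gained (5.76%, 3.63 to 9.03%) and 101 of 451 were lost (22.4%, 18.8 to 26.5%). The distal part thus had the lower share of lost calls, and the part below 30 Mb a share above that of all chromosomes. Over all peaks, strong or not, the shares without a counterpart differed in the same direction. They were 23.2% from 30 Mb onward and 32.1% below it for 48 hpf peaks, and 34.1% and 46.3% for dome peaks. Within 1 Mb of a chromosome end, strong peaks were scarce, making up 5.37% of the 48 hpf peaks and 5.02% of the dome peaks there. Of those, 34 of 449 were gained (7.57%, 5.47 to 10.4%) and 86 of 521 were lost (16.5%, 13.6 to 19.9%). All peaks near the ends lacked a counterpart in 32.8% of cases at 48 hpf and 47.3% at dome, against 28.7% and 39.7% in the whole lists.

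Gained and lost peaks differed in how often they met an H3K27me3 peak of dome. H3K27me3 is the mark that Polycomb repressive complex 2 deposits. An H3K27me3 peak of dome overlapped 91 of 968 gained peaks (9.40%, 7.72 to 11.4%), against 4.96% of all 48 hpf peaks. It overlapped 100 of 3073 lost peaks (3.25%, 2.68 to 3.94%), against 4.63% of all dome peaks. At sites strong at both end points the share was 10.6% for the 48 hpf and 10.8% for the dome peaks. With a weaker partner it was 7.59% for strong 48 hpf peaks and 6.59% for strong dome peaks. The share of gained peaks thus lay between those of the other strong 48 hpf peaks. The share of lost peaks lay below those of the other strong dome peaks. Over all unmatched peaks, strong or not, the share was 3.33% for 48 hpf and 2.80% for dome peaks. The interval of the lost peaks includes this 2.80%, so the low share was not particular to them. H3K27me3 peaks of 48 hpf overlapped 10 gained peaks (1.03%, 0.562 to 1.89%), against 0.462% of all 48 hpf peaks. They overlapped 15 lost peaks (0.488%, 0.296 to 0.804%), close to the 0.460% of all dome peaks. At strong 48 hpf peaks the share was 0.608% with a weaker partner and 1.61% with a strong one. At strong dome peaks it was 0.554% and 1.57%. The gained share again lay between those of the other strong peaks, and its interval includes both. The lost share lay below those of the other strong dome peaks, and its interval includes the 0.554%. Over all unmatched peaks the share was 0.307% for 48 hpf and 0.352% for dome peaks. The interval of the lost peaks includes this 0.352% as well.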

How the data were processed

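The 5 deposited files are peak lists, 1 from each library. The submitters' processing notes name MACS2, SAMtools, Bowtie2 2.2.1 and CASAVA 1.8.2, with danRer7 as genome build. No source used here states their roles and parameters, a control library or pooling. The deposited fold is a ratio over local background, −log10 p and −log10 q in the deposited files are the caller's, and the score the authors deposited was 10 times −log10 q without decimals except in 6 dome peaks. The summit is the start plus the last column of the deposited MethylCap files.

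Percentiles of fold were taken within each list, ties averaged. The partner was the overlapping peak with the nearest summit. Fragments at the summit were solved from fold and −log10 p with scipy 1.17.1 in Python 3.11.15, checked on simulated data; depth is known only through the genome background. No genome or annotation of danRer7 was used, so no gene is assigned and no sequence shown. Regions named were the 5 gained and 5 lost peaks of highest fold and of highest −log10 q, the 5 pairs of highest summed percentile, the 3 largest differences in each direction and the 3 windows with most calls. The text describes 1 of the 3 windows for gained peaks, since 42 windows tied for the others. The members and settings were chosen with earlier results of these data known.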

Additional observations from a re-analysis of the deposited data

Results flagged for a closer look

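Peaks on the mitochondrial genome lay outside the comparisons. The dome MethylCap list held 7 of them, with 38 to 62 fragments at the summit and folds of 2.53 to 8.58, and the 24 hpf list held 4, with 11 to 13 fragments and folds of 3.27 to 3.82. The 48 hpf list held 0. The libraries differed in genome background, with 2.52 fragments at dome, 2.67 at 24 hpf and 1.65 at 48 hpf. No comparison of the stages was made from these mitochondrial peaks.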

How the results depend on the processing

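Lost shares exceeded gained shares under all 11 settings run for them. Dome-only shares exceeded 48 hpf-only shares under all 6 settings run for those. Values for 48 hpf come first in each pair. All peaks without a counterpart amounted to 32.2% and 42.6% with an overlap of 50% of the shorter peak, 18.1% and 27.2% with peaks within 1 kb counted as shared, 40.4% and 49.2% in the 50% of each list with the higher −log10 q, and 34.3% and 37.0% with equal numbers of peaks. Gained and lost shares were 3.92% and 11.2% within 1 kb, 10.5% and 23.7% in the higher 50%, 6.39% and 11.8% with equal numbers, 3.09% and 10.4% for the upper 5% by fold, 8.82% and 17.9% for the upper 20%, 3.58% and 9.15% by −log10 q, and 17.3% and 21.1% by fragments over the genome background, a setting chosen after the data were seen. Gained alone moved with the 50% overlap (5.41%) and lost alone with 1 fold threshold for both lists (11.9%). Shares with a strong partner were 39.5% and 30.1% in the higher 50%, 40.6% and 39.9% with equal numbers, 39.4% and 30.1% for the upper 5%, 49.8% and 42.7% for the upper 20%, 36.8% and 41.4% with 1 threshold, and 50.4% and 36.5% by fragments. With 1 threshold and only there, the order of the stages turned. The median summit distance was 77, 102 and 78 bp with the 50% overlap, within 1 kb and in the higher 50%, 64.5 bp between peak centres and 75 bp for reciprocal partners. In all, 41 of 65 alternatives moved a value beyond its interval, and the cause was not tested. Leaving out chromosome 4 moved no value beyond its interval. Adding all sequences brought in only 7 dome peaks and 0 at 48 hpf. Limiting dome to summits above the 48 hpf threshold, run for the dome-only share alone, kept 218656 of 220564 peaks. These last settings changed the lists too little to move a value far, and none moved beyond its interval. Of 10 named lost regions, 5 had a 48 hpf peak within 1 kb, and of 7 named gained regions 0 had a dome peak so close. No paired analysis was possible because each stage had 1 library. Peaks below the detection limit of a library, 6 fragments on the genome background at 48 hpf and 8 at dome, are missing from the lists, so the absence of a call does not show absence of methylation.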
